A study of Homo sapiens with 9 samples.

Results

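The interferon and RNA sensing genes described here are 33 genes, named by symbol in a fixed list and matched to the deposited counts by Ensembl identifier through GENCODE release 44, out of 60609 gene identifiers counted. They comprise 5 RNA sensors (RIGI, IFIH1, DHX58, TLR3 and EIF2AK2), 2 genes of DNA sensing (CGAS and STING1), 4 transcription factors (STAT2, IRF9, IRF1 and IRF7), 4 OAS, 4 IFIT and 2 MX genes, 4 genes of membrane antiviral proteins (IFITM1, IFITM2, IFITM3 and BST2), 7 further interferon-stimulated genes (ISG15, IFI6, IFI27, IFI35, IFI44, IFI44L and XAF1) and the RNA editing enzyme ADAR. Their RNA was counted by sequencing of ribosome-depleted RNA from U2-OS, an established human osteosarcoma cell line, in 9 libraries. Clone A1 and clone A4 overexpress NCBP2, the cap-binding subunit of the nuclear cap-binding complex, and gave 3 libraries each (replicates A, B and C); the controls were 3 libraries from 3 clones made the same way with an empty vector, 1 library per clone (replicate A from vector clone 2, replicate B from vector clone 3 and replicate C from vector clone 1). No group was treated with interferon, a nucleic acid or a virus, per the labels. The labels do not say whether the 3 libraries of clone A1 or of clone A4 came from separate cultures, and only 2 clones stand for NCBP2 overexpression. The p-values here measure the spread between these libraries, shared over the groups. That spread may be technical within clone A1 and within clone A4, whereas among the vector libraries it lies between 3 clones.

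Cells detect foreign or misplaced nucleic acid with sensors such as RIG-I and MDA5 in the cytosol, TLR3 in endosomes and cGAS for DNA, which signal through the adaptors MAVS, TRIF or STING to the kinase TBK1 and the factor IRF3. The interferon that follows acts through its receptor and the factor ISGF3, which contains STAT2 and IRF9 and binds the interferon-stimulated response element, and it raises the interferon-stimulated genes. RIG-I and some IFIT proteins, such as IFIT1, read the 5′ end of RNA, including the state of its cap. ADAR edits double-stranded RNA so that MDA5 and PKR do not respond to the cell's own transcripts.

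The promoter windows show what the genes share in sequence. RefSeq promoter windows, from 250 bases before to 50 bases after a gene's start on GRCh38.p14, were matched for 24 of the 33 genes. The 9 without one were CGAS, STING1, DHX58, IRF7, OAS2, OASL, IFIT2, IFITM2 and MX2. Where a gene had several windows, only the first listed was used, for these genes and for the genes they are set beside. The core of the interferon-stimulated response element was searched as GAAA, any 2 bases, then GAAA, on both strands. It was found in 16 of the 24 windows (66.7%), against 996 of 27305 windows, 1 per gene (3.65%). The gamma-activated site, TTCNNNGAA on both strands, was found in 8 of the 24 (33.3%), against 2152 of 27305 (7.88%). The 2 motifs were searched separately. Of these windows, 6 are printed below. OAS3, IFIT3, IFI44L, IFI44 and STAT2 each had groups that did not overlap in a comparison further on, whereas the groups of IFIT5 overlapped. Each window is given 5′ to 3′ on the strand of the gene, with matches to that core or its reverse complement in capitals.
OAS3 (chr12:112938224-112938523, plus strand): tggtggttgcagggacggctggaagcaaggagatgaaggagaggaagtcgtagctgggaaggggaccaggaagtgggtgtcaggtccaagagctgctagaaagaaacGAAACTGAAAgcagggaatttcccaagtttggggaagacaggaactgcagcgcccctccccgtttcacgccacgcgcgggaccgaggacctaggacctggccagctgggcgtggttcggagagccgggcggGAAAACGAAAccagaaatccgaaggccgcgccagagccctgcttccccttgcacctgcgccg
IFIT3 (chr10:89327747-89328046, plus strand): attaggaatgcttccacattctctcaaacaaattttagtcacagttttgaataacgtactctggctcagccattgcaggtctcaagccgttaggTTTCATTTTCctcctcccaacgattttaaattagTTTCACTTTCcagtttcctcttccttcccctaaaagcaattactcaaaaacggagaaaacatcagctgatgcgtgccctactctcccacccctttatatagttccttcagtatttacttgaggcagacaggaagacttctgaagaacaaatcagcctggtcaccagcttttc
IFIT5 (chr10:89414318-89414617, plus strand): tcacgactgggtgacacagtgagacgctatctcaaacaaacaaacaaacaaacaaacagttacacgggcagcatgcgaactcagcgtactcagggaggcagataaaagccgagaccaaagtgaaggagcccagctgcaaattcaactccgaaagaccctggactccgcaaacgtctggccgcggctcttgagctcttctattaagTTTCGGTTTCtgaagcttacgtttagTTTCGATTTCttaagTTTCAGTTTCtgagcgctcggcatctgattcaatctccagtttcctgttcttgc
IFI44L (chr1:78620198-78620497, plus strand): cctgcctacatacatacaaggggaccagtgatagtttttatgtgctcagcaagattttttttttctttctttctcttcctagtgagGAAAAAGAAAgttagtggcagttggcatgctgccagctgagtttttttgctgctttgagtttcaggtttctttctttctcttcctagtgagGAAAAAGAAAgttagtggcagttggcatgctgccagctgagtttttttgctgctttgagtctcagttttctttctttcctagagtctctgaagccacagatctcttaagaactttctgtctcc
IFI44 (chr1:78649539-78649838, plus strand): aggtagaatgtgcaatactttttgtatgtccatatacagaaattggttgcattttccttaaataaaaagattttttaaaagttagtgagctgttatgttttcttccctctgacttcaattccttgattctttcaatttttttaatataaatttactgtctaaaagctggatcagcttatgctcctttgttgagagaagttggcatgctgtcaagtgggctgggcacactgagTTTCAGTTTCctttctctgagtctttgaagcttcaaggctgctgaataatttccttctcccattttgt
STAT2 (chr12:56360058-56360357, minus strand): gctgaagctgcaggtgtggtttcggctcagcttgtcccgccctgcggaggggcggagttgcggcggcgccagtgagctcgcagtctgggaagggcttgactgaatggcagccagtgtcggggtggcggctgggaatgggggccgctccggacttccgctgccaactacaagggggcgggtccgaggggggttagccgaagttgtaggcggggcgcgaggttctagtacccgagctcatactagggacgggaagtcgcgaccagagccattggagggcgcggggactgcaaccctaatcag
The OAS3, IFIT3 and IFI44L windows each hold 2 matches, the IFIT5 window 3 and the IFI44 window 1, the last starting 18 bases before the gene's start. The STAT2 window, like those of ADAR, RIGI, IRF1, IRF9, OAS1, IFI35 and XAF1, held no match, which says only that these letters are not in that window. ADAR had 3 windows and XAF1 had 2, and those after the first were not searched. Other spacings were not searched either, and the windows of OAS1, RIGI, IFI35 and XAF1 hold GAAA, 1 base, then GAAA. The genes without a match are therefore not shown to lack the element. Genes with a match were not set apart by level in the untreated vector clones: their median was 0.293 RPKM (counts scaled by exon length and library size; range 0 to 21.3, n = 16 genes), and that of genes without one was 0.348 RPKM (0.0128 to 34.7, n = 8 genes), given as a description with no test.

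Gene counts per library lay between 29234022 in clone A1 replicate A and 50554080 in vector replicate B, so that 3 counts, taken as the floor, corresponded to 0.0586 to 0.106 CPM (counts scaled by library size). NCBP2 itself measured 299, 348 and 305 CPM (clone A1), 796, 1035 and 456 CPM (clone A4) and 98.4, 90.6 and 98.3 CPM (vector), and rose in each clone (log2 fold change 1.73, SE 0.24, adjusted p = 0.0327 for clone A1, and for clone A4 2.99, SE 0.25, adjusted p = 0.000417, edgeR with Benjamini-Hochberg adjustment). Clone A1 replicate A stood apart, with correlations of log2 CPM across genes of 0.899 to 0.928 with the other libraries, and 12 of the 33 genes had 0 counts in it against 3 to 6 in each other library. Of the osteosarcoma and mesenchymal markers, RUNX2, COL1A1, SPARC, VIM and CDH2 had at least 3201 counts in every library, ALPL had 49 to 211, COL1A2 had at most 59 and TWIST1 had 0 in all libraries. The 7 leukocyte markers summed to 0.400 to 2.22 CPM, with CD3E at 0 throughout, and of the 4 plasmacytoid dendritic cell markers CLEC4C, LILRA4 and IL3RA were at 0 throughout, whereas TCF4, which other cell types also express, had 6196 to 14352 counts.

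The 33 genes differed widely in level, and most were low. In the vector clones ADAR was highest at 34.7 RPKM ± 4.62 (SD, n = 3), followed by EIF2AK2 at 21.3 ± 3.54, IFITM3 at 9.41 ± 3.0, IFIT5 at 8.95 ± 2.86, IFITM2 at 6.41 ± 2.86, CGAS at 6.36 ± 0.567, STAT2 at 5.78 ± 1.29, IFIT1 at 2.48 ± 0.766 and RIGI at 1.69 ± 0.553. By this measure ADAR and EIF2AK2 lay above the rest by more than their SDs, whereas the neighbours from IFITM3 to STAT2 lay within 1 SD of each other in turn. The order rests on the summed length of all annotated exons. For IFITM3 this is 2844 bases against 611 in its canonical transcript, for EIF2AK2 11036 against 9975, and for ADAR 12242 against 6610. The order by canonical length, in which IFITM3 would stand higher, was not computed. The remaining 24 genes had means of 1.36 RPKM or less. Summed over the 33 genes, the level was 826 to 908 CPM in the 9 libraries, and without ADAR and EIF2AK2 it was 206 to 227 CPM. A sum of that kind cannot tell fewer cells with the RNA from less RNA per cell.

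**Figure D1:**
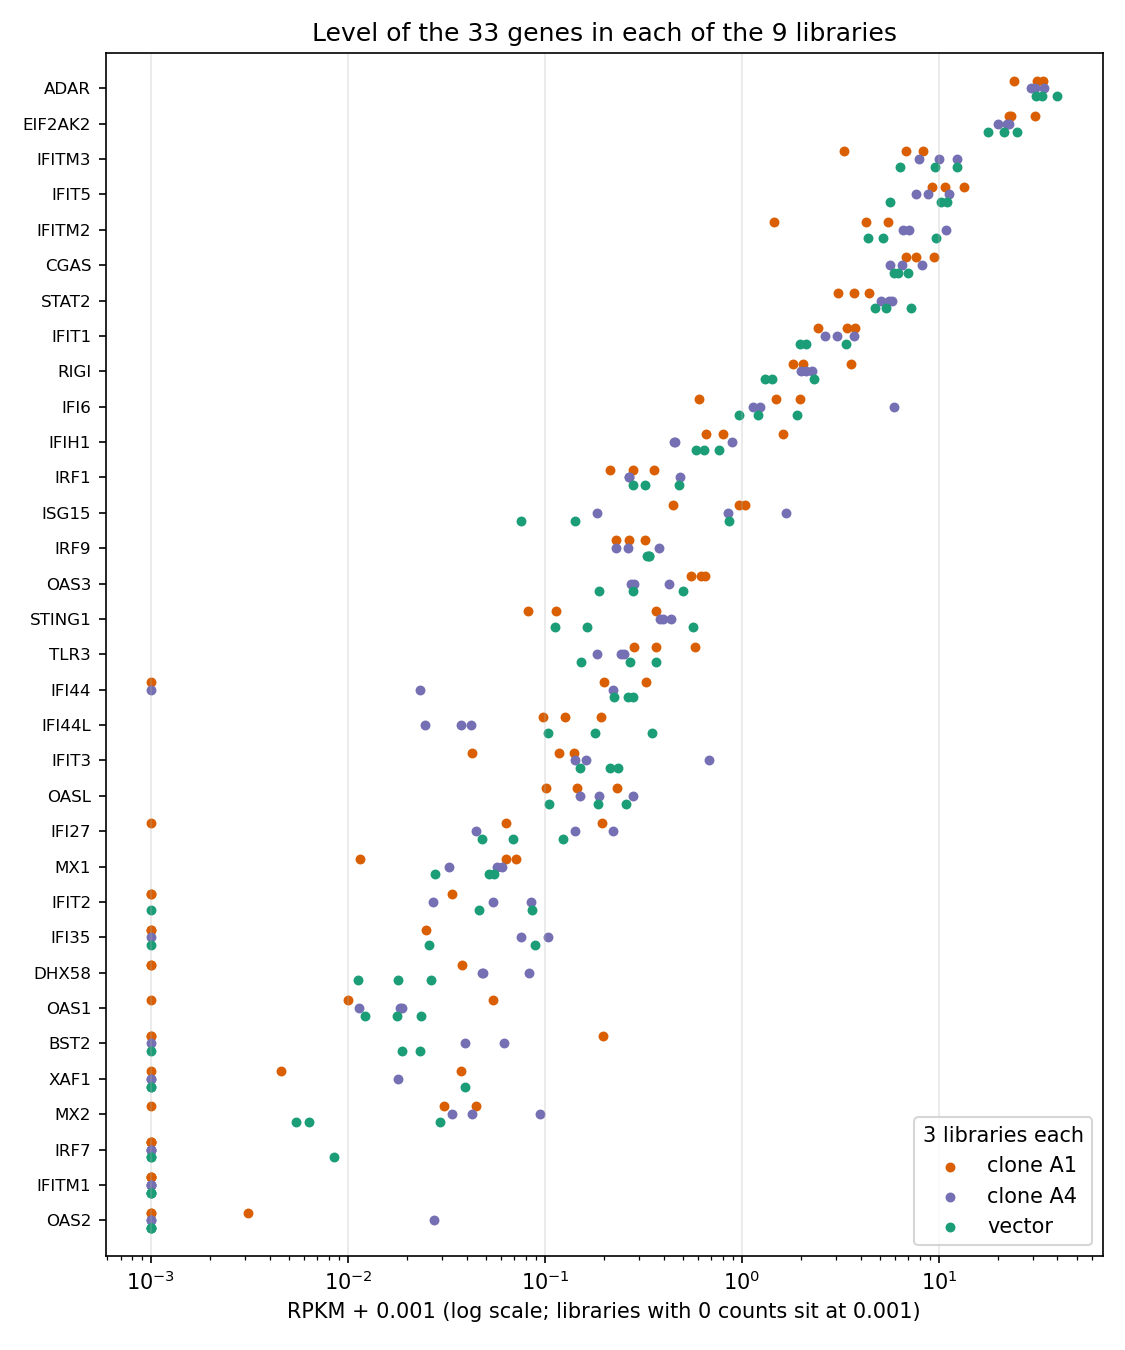
Level of each of the 33 genes in each library (RPKM plus 0.001 on a log scale), ordered by the vector mean, with points for the 3 libraries of clone A1, clone A4 and the vector. By this measure, which uses the summed length of all annotated exons, ADAR and EIF2AK2 stand at the top in every library. IFITM1 has 0 counts in all 9.

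No gene of the 33 passed an adjusted p of 0.05 in any comparison. After the low-count filter 26 were tested; DHX58, IRF7, OAS2, IFITM1, BST2, IFI35 and XAF1 were not, and their counts are given with their families. With edgeR's quasi-likelihood test and Benjamini-Hochberg adjustment over 21682 genes, 0 of 26 were called in the NCBP2 arm against vector (0.0184% of all genes tested were called), 0 in clone A1 against vector (0.0646%), 0 in clone A4 against vector (0.115%) and 0 in clone A4 against clone A1 (0.161%). At an unadjusted p under 0.05 the counts were 0, 2, 1 and 5 of 26 in that order, where 5.71%, 7.51%, 5.25% and 6.63% of all genes passed. DESeq2 called 0, 0, 1 and 1 of the genes, IFI44L in both cases. The NCBP2 arm comparison did not call NCBP2 itself either, so 0 calls there do not show an absence of change. The clone comparisons share the vector libraries or a clone with one another and are not independent.

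The direction of the estimates was mixed. The log2 fold change was above 0 for 17 of the 26 genes in the NCBP2 arm (53% of all genes tested), for 14 in clone A1 (48.4%), for 17 in clone A4 (53.6%) and for 15 in clone A4 against clone A1 (53.2%). The medians over the 26 were 0.13, 0.06, 0.10 and 0.08, beside 0.02, -0.02, 0.03 and 0.04 over all genes tested. How far a change could be hidden differed by gene. The 95% interval lay within a log2 fold change of 1 either way for 10 of 26 genes in the NCBP2 arm, 5 in clone A1, 10 in clone A4 and 8 in clone A4 against clone A1, and CGAS, ADAR, IFIT1, IFIT5 and EIF2AK2 were among them in all 4. For MX2, IFIT2, OAS1 and IFI44 the intervals spanned several log2 units; counting error and the spread between libraries both enter them and were not separated.

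**Figure D2:**
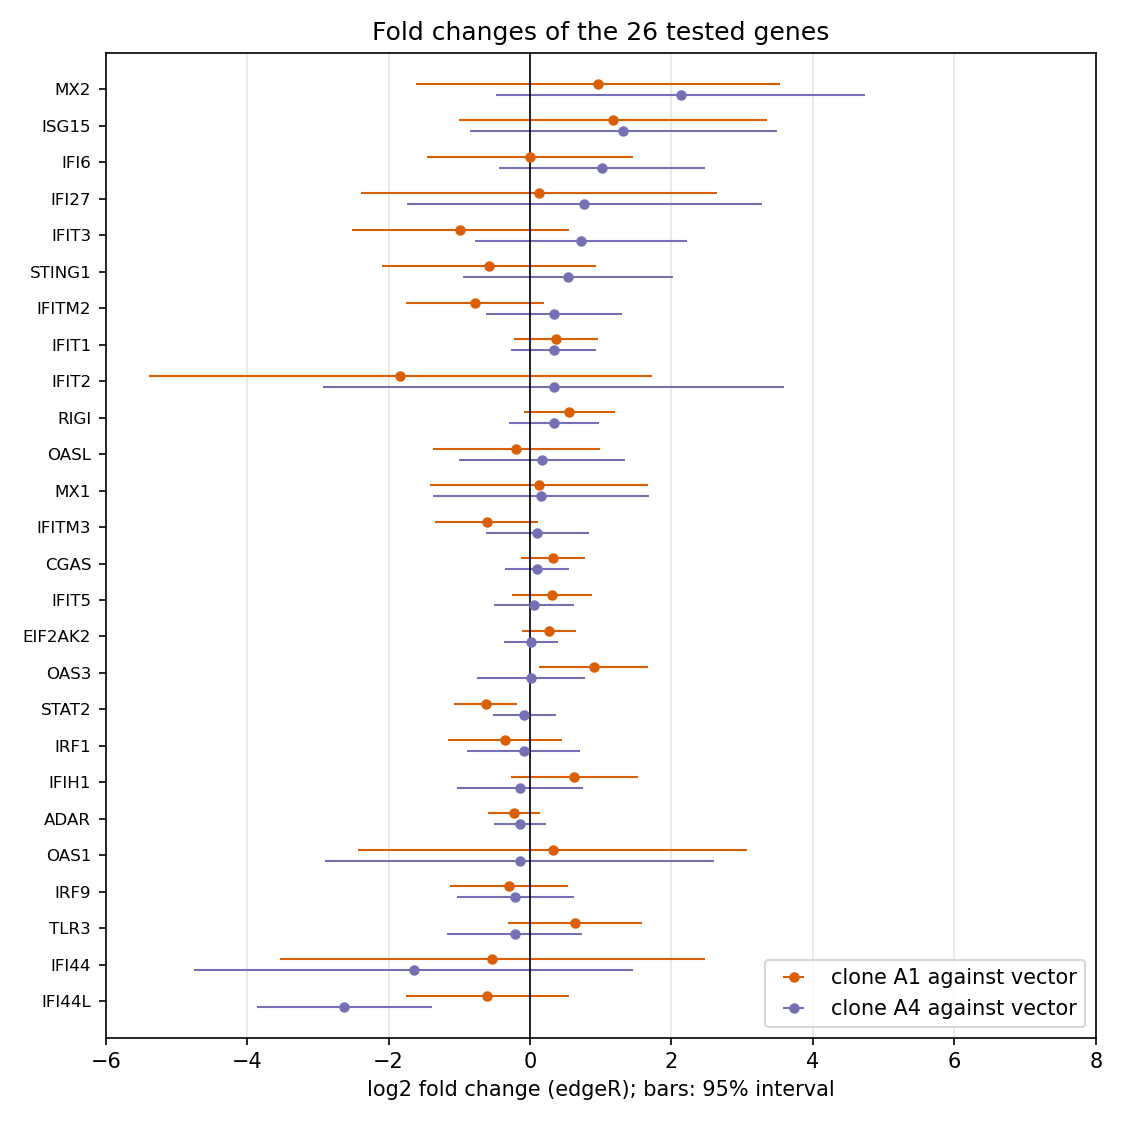
Log2 fold change of the 26 tested genes (edgeR) for clone A1 and clone A4 against the same 3 vector libraries, with 95% intervals, ordered by the value in clone A4. Intervals are narrow for ADAR, EIF2AK2 and CGAS and wide for MX2, IFIT2, OAS1 and IFI44; the IFI44L interval in clone A4 (-3.86 to -1.39) lies farthest from 0.

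Among the RNA sensors, PKR (EIF2AK2), the kinase that stops translation when it binds double-stranded RNA, was the most abundant. Its level was 339, 256 and 251 CPM (clone A1), 244, 249 and 221 CPM (clone A4) and 235, 196 and 274 CPM (vector). Only clone A1 replicate A lay above the vector range. The log2 fold change was 0.26 (95% interval -0.12 to 0.64) for clone A1 and 0.02 (-0.36 to 0.40) in clone A4. Without clone A1 replicate A the value for clone A1 was 0.12.

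RIGI, which encodes the sensor of uncapped 5′-triphosphate RNA, measured 37.2, 21.0 and 18.9 CPM (clone A1), 23.4, 21.9 and 20.7 CPM (clone A4) and 14.8, 13.6 and 24.0 CPM (vector). The groups overlapped through vector replicate C, and the log2 fold change was 0.56 (95% interval -0.08 to 1.19) for clone A1 and 0.33 (-0.30 to 0.97) in clone A4. Without clone A1 replicate A the former was 0.20. IFIH1, which encodes MDA5, the sensor of long double-stranded RNA, was low but present, with 103 to 239 counts per library and 8.41, 4.17 and 3.43 CPM (clone A1), 4.66, 2.34 and 2.40 CPM (clone A4) and 3.03, 3.36 and 3.98 CPM (vector). As with RIGI, its highest value was in clone A1 replicate A.

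TLR3, the endosomal receptor for double-stranded RNA, had 58 to 127 counts per library. It measured 4.33, 2.12 and 2.75 CPM (clone A1), 1.83, 1.89 and 1.37 CPM (clone A4) and 2.75, 1.13 and 2.02 CPM (vector). The clones did not overlap, with clone A4 below clone A1, yet both overlapped the vector range. The log2 fold change of clone A4 against clone A1 was -0.85 (SE 0.44, adjusted p = 0.779, edgeR with Benjamini-Hochberg adjustment), and it was -0.53 without clone A1 replicate A.

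Each of the 5 RNA sensors among the 33 genes had more than 10 counts in at least 1 library, DHX58 being the lowest, and the sensors at 0 or with at most 10 counts in every library lay outside the 33. DHX58, which encodes LGP2, the third RIG-I-like receptor, had 0, 0 and 6 counts (clone A1), 15, 8 and 8 (clone A4) and 3, 2 and 4 (vector). TLR8 had 0 counts in all 9 libraries, and TLR7, the receptor for single-stranded RNA, had at most 7. ZBP1, a sensor of Z-form nucleic acid, and AIM2, an inflammasome DNA sensor, had at most 3 counts in any library. TLR9 was also at 0 throughout, but 99.7% of its exon sequence is shared with another gene on the same strand, so its count says nothing about its level. A count of 0 allows a level of up to 0.0586 to 0.106 CPM in these libraries, counting error only.

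For DNA sensing, CGAS was present and STING1 was low. CGAS, the enzyme that makes the cyclic dinucleotide cGAMP on binding DNA, had 1047 to 1511 counts per library and measured 33.3 CPM ± 5.57 in clone A1, 28.3 ± 5.56 in clone A4 and 26.6 ± 2.37 in the vector libraries (SD, n = 3 each). STING1, the receptor for cGAMP, measured 0.387, 1.75 and 0.541 CPM (clone A1), 2.10, 1.91 and 1.84 CPM (clone A4) and 0.780, 2.69 and 0.537 CPM (vector). Per length it stood at 0.279 RPKM ± 0.246 in the vector clones against 6.36 ± 0.567 for CGAS. Clone A4 lay above clone A1 with no overlap (log2 fold change 1.12, SE 0.70, adjusted p = 0.810, edgeR with Benjamini-Hochberg adjustment), within the vector range, and the value was 0.77 without clone A1 replicate A and 2.05 without clone A1 replicate B. IFI16, another DNA-binding sensor outside the 33, measured 48.3 to 94.4 CPM.

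STAT2, the ISGF3 subunit, was the gene of the 33 with the smallest unadjusted p in clone A1 against vector. It measured 28.7, 41.3 and 34.6 CPM (clone A1), 47.4, 53.7 and 51.7 CPM (clone A4) and 50.2, 67.2 and 44.1 CPM (vector). All 3 libraries of clone A1 lay below all of clone A4 and of the vector, and clone A4 overlapped the vector. The log2 fold change in clone A1 was -0.63 (SE 0.21, unadjusted p = 0.00996, adjusted p = 0.428, edgeR with Benjamini-Hochberg adjustment), and it was -0.50 without clone A1 replicate A. Clones that did not overlap the vector were no rarity across genes: in clone A1, 1 of 26 genes lay above and 3 below the vector range (6.18% and 8.06% of all genes tested), and in the NCBP2 arm 0 and 0 (1.47% and 2.26%).

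IRF9, the DNA-binding subunit of ISGF3, measured 1.48, 1.72 and 2.07 CPM (clone A1), 1.70, 1.48 and 2.44 CPM (clone A4) and 2.19, 2.13 and 2.17 CPM (vector). Clone A1 lay just below the narrow vector range, with a log2 fold change of -0.30 (SE 0.38, adjusted p = 0.887, edgeR with Benjamini-Hochberg adjustment). Without clone A1 replicate A it was -0.18. Of its exon sequence 23.9% is shared on the same strand with a readthrough gene, so its counts are uncertain. IRF1, a factor induced chiefly by interferon gamma, measured 2.60 to 5.93 CPM with overlapping groups. IRF7, the factor that amplifies interferon alpha, had 1 count in vector replicate B and 0 in the other 8 libraries.

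Of the OAS genes, whose enzymes make the 2-5A signal for RNase L, only OAS3 reached several CPM. It measured 11.6, 11.1 and 9.88 CPM (clone A1), 5.08, 7.69 and 4.90 CPM (clone A4) and 5.03, 9.06 and 3.39 CPM (vector). Clone A1 lay above both other groups, and clone A4 within the vector range. On the log2 scale the difference from vector was 0.90 (SE 0.36, adjusted p = 0.569) in clone A1, 0.01 in clone A4, and -0.88 (SE 0.36, adjusted p = 0.660) in clone A4 against clone A1, by edgeR with Benjamini-Hochberg adjustment. The value in clone A1 depended on the vector libraries: it was 0.79 without vector replicate A, 1.37 without replicate B and 0.61 without replicate C, with adjusted p-values of 0.895, 0.260 and 0.713 from edgeR with Benjamini-Hochberg adjustment.

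OAS1 had 0 to 26 counts per library, with 26 in clone A1 replicate B, and OASL had 18 to 83. OAS2 had 1 count in clone A1 replicate C, 13 in clone A4 replicate B and 0 in the other libraries.

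Of the IFIT proteins, IFIT1 and IFIT5 bind the 5′ end of RNA, IFIT1 preferring caps that lack methylation of the first nucleotides. IFIT5 and IFIT1 were the abundant members, at 8.95 and 2.48 RPKM in the vector clones, and IFIT3 and IFIT2 were low, at 0.199 and 0.0432 RPKM. IFIT1 measured 17.3, 11.2 and 15.7 CPM (clone A1), 14.1, 17.0 and 12.2 CPM (clone A4) and 9.77, 9.07 and 15.5 CPM (vector). The groups overlapped, with a log2 fold change of 0.37 (95% interval -0.23 to 0.97) for clone A1 and 0.33 (-0.26 to 0.93) in clone A4. IFIT5 measured 48.6 CPM ± 9.18 in clone A1, 40.5 ± 8.09 in clone A4 and 39.1 ± 12.5 in the vector libraries (SD, n = 3 each).

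IFIT3, which stabilises IFIT1, measured 0.211, 0.592 and 0.705 CPM (clone A1), 0.818, 3.46 and 0.717 CPM (clone A4) and 1.19, 0.761 and 1.07 CPM (vector). Clone A1 lay below both other groups, and clone A4 replicate B lay far above its clone. In log2 units the fold change was -0.98 (SE 0.71, adjusted p = 0.798) for clone A1 and 1.71 (SE 0.71, adjusted p = 0.684) between the clones, clone A4 against clone A1, by edgeR with Benjamini-Hochberg adjustment. Without clone A4 replicate B that last value was 0.58, and without clone A1 replicate A the first was -0.63. IFIT2 had at most 16 counts in any library and 12.1% of its exons are shared with another gene on the same strand.

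The membrane proteins that block virus entry or release were represented by IFITM2 and IFITM3 alone. IFITM1 had 0 counts in all 9 libraries and BST2, the tetherin gene, had 0, 8 and 0 (clone A1), 2, 0 and 3 (clone A4) and 0, 1 and 1 (vector). IFITM3 measured 9.33, 23.7 and 19.3 CPM (clone A1), 28.3, 22.6 and 35.3 CPM (clone A4) and 27.2, 35.1 and 18.0 CPM (vector). IFITM2 measured 2.32, 8.90 and 6.82 CPM (clone A1), 11.3, 10.5 and 17.4 CPM (clone A4) and 8.32, 15.6 and 7.03 CPM (vector). For IFITM2 clone A4 lay above clone A1 with no overlap (log2 fold change 1.11, SE 0.45, adjusted p = 0.672, edgeR with Benjamini-Hochberg adjustment), and the value was 0.74 without clone A1 replicate A. These genes are near-identical copies, so their separate levels are uncertain where the counting could split or drop shared reads.

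Of the dynamin-like MX genes, MX1 had 7 to 54 counts per library. MX2, whose protein acts at the nuclear pore, had 0, 16 and 27 counts (clone A1), 65, 21 and 27 (clone A4) and 3, 4 and 17 (vector). All 3 libraries of clone A4 lay above the vector libraries, at 1.36, 0.478 and 0.605 CPM against 0.0650, 0.0781 and 0.415 CPM. On the log2 scale the fold change was 2.13 (SE 1.2, adjusted p = 1.0, edgeR with Benjamini-Hochberg adjustment). Leaving out 1 library gave 3.44 without vector replicate C, 1.72 and 1.76 without vector replicates A and B, and 1.53 without clone A4 replicate A. In clone A4 against vector 1 of 26 genes lay above and 2 below with no overlap (6.20% and 5.86% of all genes tested).

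IFI44L and its neighbour IFI44, on chromosome 1 and separated by 3650 bases, were the 2 genes below the vector range in clone A4. Both are textbook interferon-stimulated genes. IFI44L (78619902 to 78646145, GRCh38, plus strand) had 63, 42 and 62 counts (clone A1), 13, 21 and 19 (clone A4) and 186, 61 and 85 (vector), which is 2.22, 1.13 and 1.46 CPM, 0.273, 0.478 and 0.425 CPM, and 4.03, 1.19 and 2.07 CPM. Every library of clone A4 lay below every other library, and clone A1 overlapped the vector. For clone A4 the log2 fold change was -2.63 (SE 0.57, unadjusted p = 0.000572, adjusted p = 0.184, edgeR with Benjamini-Hochberg adjustment), and against clone A1 it was -2.02 (SE 0.56, adjusted p = 0.341).

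The IFI44L difference from vector passed the threshold in DESeq2 (adjusted p = 0.00117) and in edgeR without the low-count filter (adjusted p = 0.0216), and that from clone A1 passed in DESeq2 alone (adjusted p = 0.0431), with Benjamini-Hochberg adjustment in each. Its value in clone A4 against vector lay between -2.96 and -2.06 over the 14 alternatives, with the value nearest 0, at an adjusted p of 0.944 from edgeR, when vector replicate A was left out. IFI44 (78649796 to 78664078, plus strand) had 0, 15 and 28 counts (clone A1), 0, 2 and 20 (clone A4) and 21, 29 and 22 (vector). Its log2 fold change in clone A4 was -1.65 (SE 1.43, adjusted p = 1.0, edgeR with Benjamini-Hochberg adjustment). That value was -4.39 without clone A4 replicate C and -1.09 without clone A4 replicate A. The 13 other tested genes within 1 Mb had log2 fold changes of -0.65 to 2.69 in clone A4 against vector, with a median of 0.09. The nearest on either side, PTGFR and ADGRL4, were at -0.40 (SE 0.47) and -0.50 (SE 0.48), each overlapping the vector range. Of the 13, 0 were called, beside 0.115% of all genes tested, and a change of the region was not tested. The printed promoter windows of IFI44L and IFI44 hold the response element core.

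**Figure D3:**
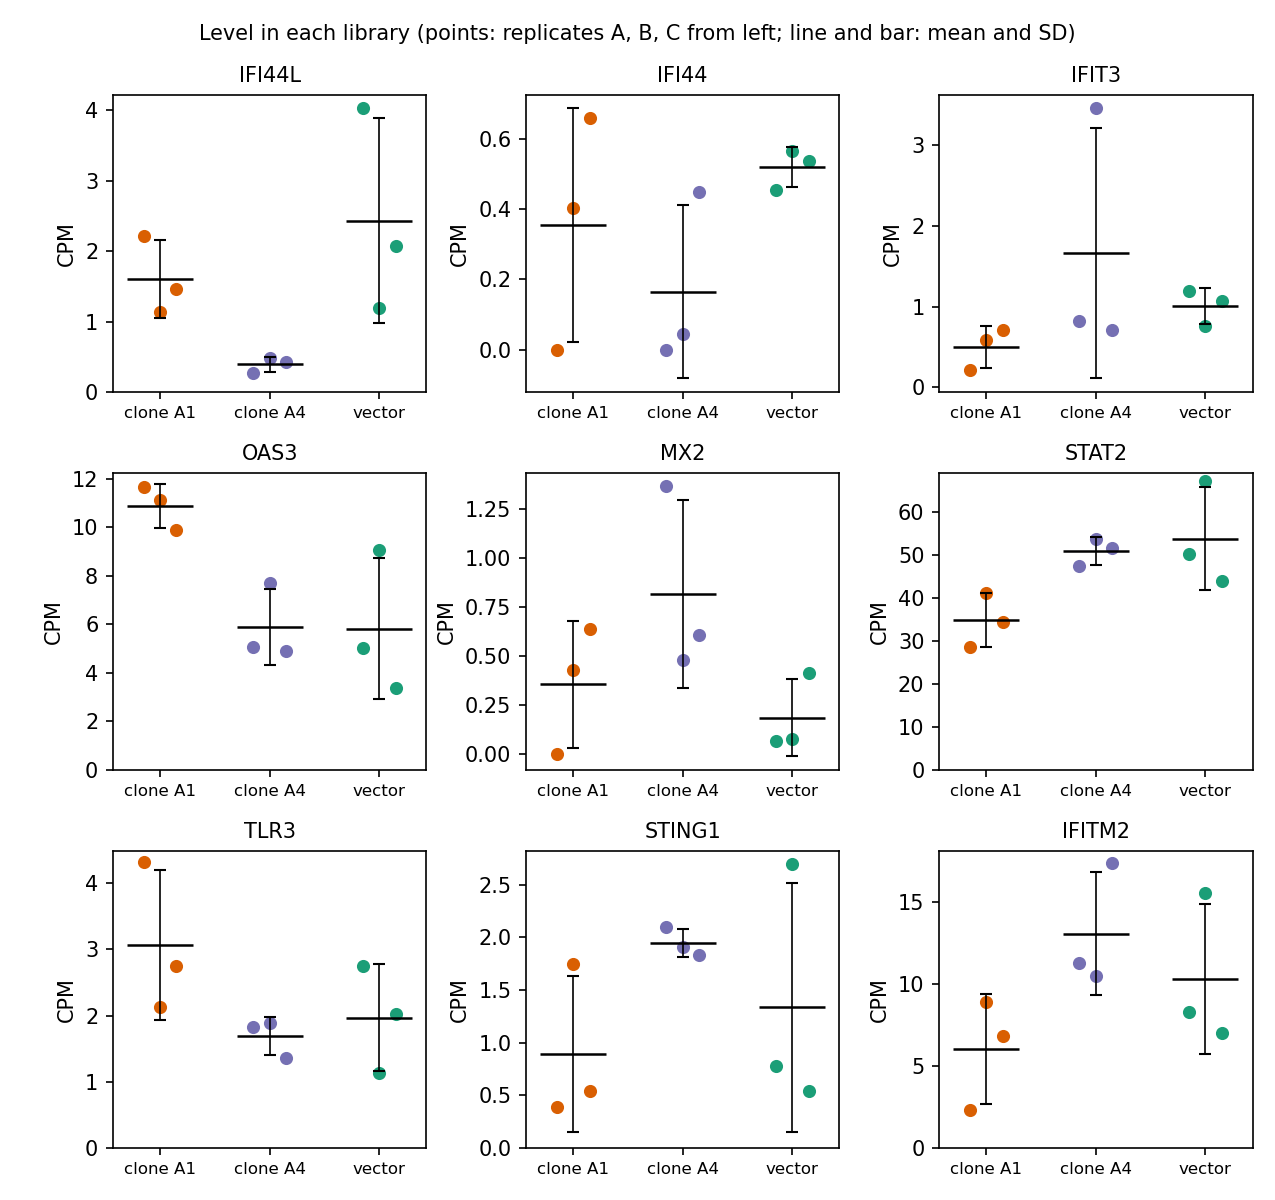
CPM of 9 genes in each library (replicates A, B and C from left to right in each group), with the mean and SD as line and bar. IFI44L is lowest in all 3 libraries of clone A4, OAS3 highest in clone A1, and STAT2 lowest in clone A1, while the vector libraries spread widely for OAS3, STING1 and IFITM2.

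The other interferon-stimulated genes showed no separation between groups. ISG15, which encodes the ubiquitin-like modifier, had 11, 31 and 38 counts (clone A1), 35, 7 and 65 (clone A4) and 3, 38 and 5 (vector). IFI6, a mitochondrial and endoplasmic reticulum protein gene, measured 0.563, 1.40 and 1.83 CPM (clone A1), 1.15, 1.07 and 5.51 CPM (clone A4) and 1.13, 1.78 and 0.903 CPM (vector), and 23.1% of its exons are shared on the same strand with a long noncoding RNA. IFI27 had 0 to 41 counts per library. IFI35 had 0, 0 and 2 counts (clone A1), 7, 0 and 9 (clone A4) and 8, 0 and 2 (vector), and XAF1 had 0, 9 and 1, then 0, 0 and 5, then 0, 13 and 0.

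ADAR was the most abundant of the 33 genes in RPKM in all 3 groups, at 29.7 RPKM ± 5.08 in clone A1, 31.4 ± 2.41 in clone A4 and 34.7 ± 4.62 in the vector clones (SD, n = 3 each). By library it measured 293, 411 and 387 CPM (clone A1), 358, 416 and 378 CPM (clone A4) and 407, 488 and 379 CPM (vector). Its fold change on the log2 scale was -0.22 (95% interval -0.59 to 0.14) for clone A1 and -0.14 (-0.51 to 0.22) in clone A4, and the value for clone A1 was -0.08 when its replicate A was left out. The 2 ADAR protein forms start from different promoters and are not told apart by gene counts.

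Clone A4 against clone A1 had 8 of 26 genes whose libraries did not overlap, the most of the 4 comparisons. IFIT3, STING1, IFITM2 and STAT2 were higher in clone A4 in every library, and IFI44L, OAS3, TLR3 and EIF2AK2 were lower, 4 of 26 in each direction (7.92% and 5.72% of all genes tested). STAT2 had a log2 fold change of 0.55 and EIF2AK2 of -0.25 there, and neither passed the adjusted threshold.

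Base composition moved with several of these values. Across the 13 genes with at least 50 counts in every library, the log2 ratio of clone A1 replicate A to the mean of the other 2 libraries of its clone had a Pearson correlation of -0.846 (Spearman -0.813) with the GC content of the canonical transcript. For vector replicate B against the other vector libraries it was 0.945 (Spearman 0.934). In the other 7 libraries the Pearson correlation was 0.905 and 0.521 in clone A1 replicates B and C, -0.585, -0.300 and 0.713 in clone A4 replicates A, B and C, and -0.452 and -0.893 in vector replicates A and C. Each value shares its reference libraries with others of its group. These are descriptions over 13 genes that share a library and are not independent. RIGI, TLR3, IFIT5 and EIF2AK2, at 37.6% to 39.9% GC, were high in clone A1 replicate A and low in vector replicate B, and IFITM2, IFITM3, STAT2 and ADAR, at 50.03% to 58.1% GC, were low in the first and high in the second. OAS3, at 54.1% GC, was high in both, with log2 ratios of 0.15 and 1.11. The same 2 libraries had the highest and lowest share of uniquely aligned reads assigned to no gene on the counted strand, 52.4% and 32.4%. Where those reads lie was not examined. The part of base composition in the differences between groups was not tested.

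**Figure D4:**
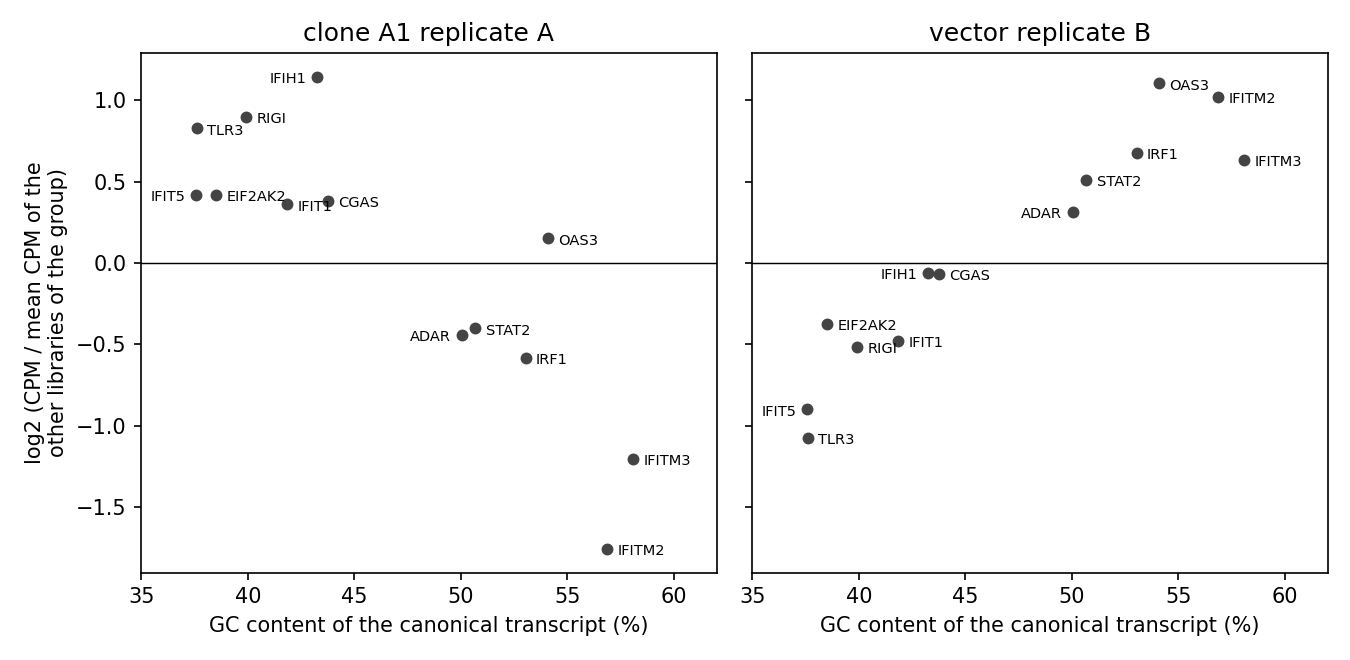
Log2 ratio of CPM in clone A1 replicate A (left) and vector replicate B (right) to the mean of the other 2 libraries of the same group, against the GC content of the canonical transcript, for 13 genes. The points slope downwards on the left (r = -0.846) and upwards on the right (r = 0.945).

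The strand of the reads bears on what the low genes hold. Summed over the 9 libraries, IRF7 had 1 count on its own strand and 110 on the opposite strand, IFI35 had 28 and 43, and IFIT2 had 63 and 85. RIGI had 8003 and 2793, so 25.9% of its stranded counts lay opposite to the gene, although no exon of GENCODE 44 overlaps its exons on that strand. IRF1 had 1572 on its own strand and 164 (9.45%) on the other, where IRF1-AS1 covers 22.9% of its exons, and CGAS had 11052 and 992 (8.24%). IFITM1 had 0 on either strand. Over all genes, 5.51% to 6.42% of stranded counts lay on the opposite strand.

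**Figure D5:**
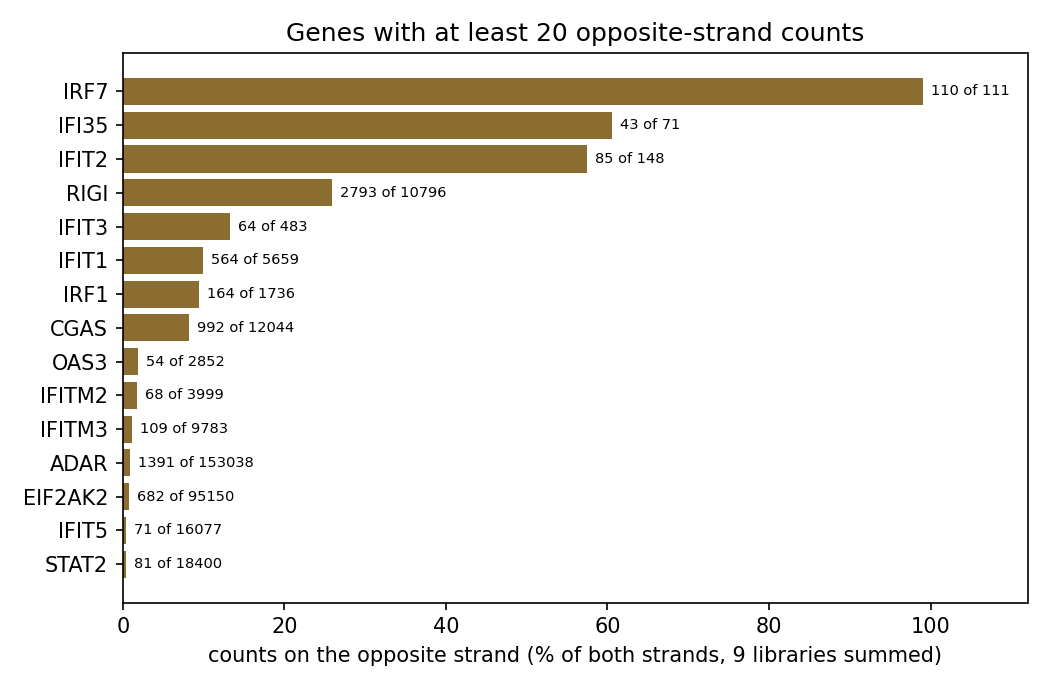
Share of stranded counts on the opposite strand, in percent of both strands summed over the 9 libraries, for the genes with at least 20 such counts (opposite counts of all counts beside each bar). IRF7 stands at 99.1% and RIGI at 25.9%, whereas ADAR, EIF2AK2, IFIT5 and STAT2 are under 1%.

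The rest of the pathway was described by 97 genes in 7 lists, of which 68 were tested and 0 were called in any of the 4 comparisons. At an unadjusted p under 0.05, 10, 12, 3 and 7 of 68 passed (14.7%, 17.6%, 4.41% and 10.3%) in the NCBP2 arm, clone A1, clone A4, and clone A4 against clone A1, beside 5.71%, 7.51%, 5.25% and 6.63% of all genes tested. The adaptor MAVS, which relays RIG-I and MDA5, measured 71.5, 82.1 and 89.6 CPM (clone A1), 94.7, 93.2 and 111 CPM (clone A4) and 125, 132 and 117 CPM (vector). Both clones lay below all vector libraries, with log2 fold changes of -0.62 (SE 0.16, adjusted p = 0.262) for clone A1 and -0.32 (SE 0.16, adjusted p = 0.993) for clone A4, by edgeR with Benjamini-Hochberg adjustment. TBK1 measured 32.6 to 98.7 CPM and IRF3 1.79 to 8.96 CPM, with overlapping groups.

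The interferons themselves were nearly silent. IFNB1 had 0 counts in all 9 libraries, as had 16 more of the 20 interferon genes; IFNE had at most 15 counts and IFNA5 and IFNK 1 each. The receptor gene IFNAR1 measured 105 to 132 CPM and IFNAR2 6.55 to 10.7 CPM.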

How the data were processed

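RNA of 9 U2-OS libraries was sequenced after ribosomal RNA removal, per the labels' protocols, whereas the molecule field names polyadenylated RNA. The deposited values are raw counts per gene and strand, 1 library per table; the submitters' processing notes name STAR 2.7.1a and GRCh38, and the annotation and counting options are not given in the sources used here. The counts of the strand that holds most reads were used, without the 4 opening lines that name no gene (44.5% to 63.6% of reads).

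Genes were tested with edgeR 4.0.16 (R 4.3.3) in its quasi-likelihood form, with filterByExpr defaults, TMM scaling and Benjamini-Hochberg adjusted p under 0.05 over 21682 genes. One fit had 2 groups and another 3, sharing the spread over all 9 libraries. CPM uses TMM sizes, and RPKM the summed exon length of GENCODE 44, in which 60295 of 60609 identifiers were matched. Fits were tested on simulated data. Intervals are pointwise 95% intervals, and floors of 3 counts cover counting error only. No 2 libraries of a group agreed within sampling noise (chi-square per degree of freedom at least 29.8).

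The 33 genes and the lists were chosen with earlier results of these data known. By the naming rule, full statistics are given for genes past the threshold and for up to 3 per direction and comparison whose groups do not overlap, with IRF3, MAVS, TBK1 and IFNB1; 1 further gene of the rule is not reported here. Other genes outside the 33 were chosen after their values were seen, as were the checks of GC content and the printed promoters. Alternatives were DESeq2 1.42.0, its scaling, no low-count filter, counts without strand, a replicate block, each library left out and counts summed per clone. No batch is labelled, so none was compared within.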

Additional observations from a re-analysis of the deposited data

Results flagged for a closer look

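Of the 26 tested genes, 5 had a library far from the other NCBP2 libraries, by the gap to the nearest library over the range of the 6. A gap above 0.625 of the range was flagged. That limit marks about 1 in 20 cases by chance only for 6 independent, normally distributed values. These values come from 2 clones and some rest on few counts, so the rate expected by chance is not known here. RIGI measured 37.2 CPM in clone A1 replicate A, where the next of the 6 was 23.4 CPM and the vector libraries held 13.6 to 24.0 CPM. EIF2AK2 measured 339 CPM in the same library, against a next value of 256 CPM. OAS1 measured 0.699 CPM in clone A1 replicate B, which is 26 counts, against a next value of 0.231 CPM. IFIT3 measured 3.46 CPM in clone A4 replicate B, against a next value of 0.818 CPM and vector values of 0.761 to 1.19 CPM. IFI6 measured 5.51 CPM in clone A4 replicate C, against a next value of 1.83 CPM.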

How the results depend on the processing

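The finding that 0 of the 26 genes passed the adjusted threshold in each of the 4 comparisons held under TMM or median-of-ratios scaling, counts without regard to strand, the replicate block and each library left out, and in the NCBP2 arm also with counts summed per clone. DESeq2 called 1 gene, IFI44L, in clone A4 against vector (log2 fold change -2.63) and in clone A4 against clone A1 (-2.03), and edgeR without the low-count filter called 1, IFI44L, in clone A4 against vector (-2.63). The genes given for their lack of overlap kept their sign in those comparisons under every alternative. They were chosen because their groups do not overlap, so leaving out a library could hardly change the sign, and its keeping is no separate evidence. Values near 0 changed sign (OAS3 in clone A4 against vector ran from -0.28 to 0.48 and EIF2AK2 from -0.10 to 0.12). Of all 26 genes 13, 19, 11 and 17 kept their sign throughout in the NCBP2 arm, clone A1, clone A4, and clone A4 against clone A1. The number of all genes called moved far more, and the cause was not tested. It was 4, 14, 25 and 35 in that order, 111, 240, 167 and 232 with DESeq2, 20, 312, 163 and 231 without the low-count filter, and 0 in the NCBP2 arm with counts summed per clone (906 at an unadjusted p under 0.05 in edgeR). Leaving out 1 library gave 1 (vector replicate A) to 8 (clone A1 replicate A) genes in the NCBP2 arm, 3 (clone A1 replicate B, or vector replicate A or C) to 14 in clone A1, 7 (vector replicate A) to 41 (clone A1 replicate A) in clone A4, and 10 (clone A4 replicate A) to 56 (vector replicate B) in clone A4 against clone A1. With the replicate block, 13, 38, 53 and 51 genes were called; same-letter libraries shared deviations with correlations of -0.10 to 0.18, not every library matched its own letter best, and the letters were not taken as pairs. Counting error weighs most on the low genes: 12 of the 33 had 0 counts in at least 1 library.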

Other observations

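Among sensors outside the 33 genes, NLRP1, a sensor that assembles an inflammasome, was lower in both clones than in every vector library, at 0.0352, 0.592 and 0.635 CPM (clone A1), 2.50, 1.98 and 2.17 CPM (clone A4) and 5.39, 5.97 and 7.56 CPM (vector). On the log2 scale its fold change was -3.85 (SE 0.62, adjusted p = 0.0556) for clone A1 and -1.51 (adjusted p = 0.692) in clone A4, by edgeR with Benjamini-Hochberg adjustment. TRIM22, an interferon-inducible antiviral gene, measured 51, 48.9 and 48.4 CPM (clone A1), 87.0, 102 and 58.3 CPM (clone A4) and 94.3, 77.4 and 96.0 CPM (vector). LAMP3 measured 4.08, 3.90 and 3.79 CPM (clone A1), 1.66, 2.23 and 1.77 CPM (clone A4) and 5.11, 4.31 and 5.66 CPM (vector), so that clone A4 was lowest, as for IFI44L. These 3 genes were chosen after their values were seen, and none passed the adjusted threshold.

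TREX1, the exonuclease that clears cytosolic DNA, was at 0 in all 9 libraries, and 100% of its exon sequence lies within ATRIP on the same strand, so its count says nothing about its level. HERC5, the ligase that attaches ISG15, was at 0 in all 9 libraries as well. The 6 epithelial markers summed to 80.9 to 151 CPM in clone A1, 76.3 to 105 CPM in clone A4 and 123 to 217 CPM in the vector libraries.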
